A study of Mus musculus with 11 samples.

Results

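The comparison set EMCN- long-term haematopoietic stem cells (LT-HSCs) against granulocyte-monocyte progenitors (GMPs), across all genes of the count table. Its members were chosen by the group of each library, which gave 7 of the 11 libraries of the series: 3 of EMCN- LT-HSCs, from mice 1, 2 and 4, and 4 of GMPs, from mice 1 to 4. The 4 libraries of EMCN+ LT-HSCs were not used. The animals were female C57BL/6NTac mice with no transgene, deletion or treatment named in the labels, and no age is given in the sources used here. Bone marrow was depleted of lineage-positive cells, and both populations were collected by flow cytometry from the same animals. LT-HSCs were CD150+ CD48- cells within the Lin- Sca-1+ c-Kit+ (LSK) gate, and EMCN- LT-HSCs were the part of them without surface endomucin (EMCN), a sialomucin best known from endothelium. The antibodies listed beside the sort include CD16/CD32, the Fc gamma receptors that separate GMPs from other myeloid progenitors, and do not include CD34; the gate drawn for GMPs is not given in the sources used here. The submitters removed 1 further EMCN- library for poor quality.

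LT-HSCs are the rare, mostly resting cells that can rebuild all blood lineages after transplantation. GMPs stand several steps further down the myeloid path: they divide fast, have largely lost other lineage fates, and give rise to neutrophils, monocytes and related cells. In GMPs the transcription factors PU.1, C/EBP alpha and IRF8 direct the myeloid programme. The genes of the azurophil (primary) granule proteins, such as myeloperoxidase and the serine proteases, are already active at this stage. The comparison places EMCN- stem cells beside a committed, dividing progenitor of the same marrow.

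Totals were 4.87 ± 1.09 M (1e6) counts per library (SD, n = 3) for EMCN- LT-HSCs and 7.87 ± 1.39 M (SD, n = 4) for GMPs, and the extremes were 3.63 and 9.19 M. Levels are given as CPM, counts per M counts after scaling by the trimmed mean of M values (TMM). A single count was worth 0.136 to 0.205 CPM, and 3 counts, the limit that a count of 0 allows, 0.407 to 0.616 CPM. Reads carried no molecular identifiers as far as the sources say, so floors and counting intervals cover counting error only. Mitochondrial ribosomal RNA took 18.2 ± 0.762% of the counts of EMCN- LT-HSCs and 27.6 ± 1.28% of those of GMPs, and its part in the results below was not tested. No library stood nearer to the other group than to its own: Pearson's r of log2 CPM was 0.947 to 0.968 within groups and 0.726 to 0.781 between them. Below, values for single libraries are in the order of mice 1, 2 and 4 for EMCN- LT-HSCs and mice 1 to 4 for GMPs. A figure after ± is the SD over 3 EMCN- or 4 GMP libraries for a level in CPM, and the standard error (SE) for a log2 change, which is EMCN- LT-HSC minus GMP.

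The 2 populations differed across the transcriptome. Of 13465 genes tested, 7372 (54.7%) passed the edgeR quasi-likelihood test at a Benjamini-Hochberg adjusted p of 0.05. They comprised 3823 genes higher in EMCN- LT-HSCs (28.4% of those tested) and 3549 genes lower (26.4%). When each gene was tested against a 2-fold difference, 1556 genes were higher (11.6%) and 1184 lower (8.79%). The median gene changed by 0.00847 on the log2 scale, a point that TMM scaling sets. With total-count scaling the median gene moved up by 0.702, and 7571 genes were called higher and 1502 lower (83.4% higher, against 51.9%). Leaving the abundant noncoding RNAs out of the totals gave a shift of 0.45 and 74.9% higher. Changes below are therefore relative to the median gene, and the background shares of 28.4% and 26.4% are the ones each list is read against. The count filter could be passed through 1 group alone: of the genes tested, 957 reached its level only in EMCN- libraries and 257 only in GMP libraries. Such a gene had to differ, so the counts and medians of lists below describe the tested members and not whole lists. In such bulk samples fewer cells with a transcript and less of it in each cell cannot be told apart.

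**Figure D1:**
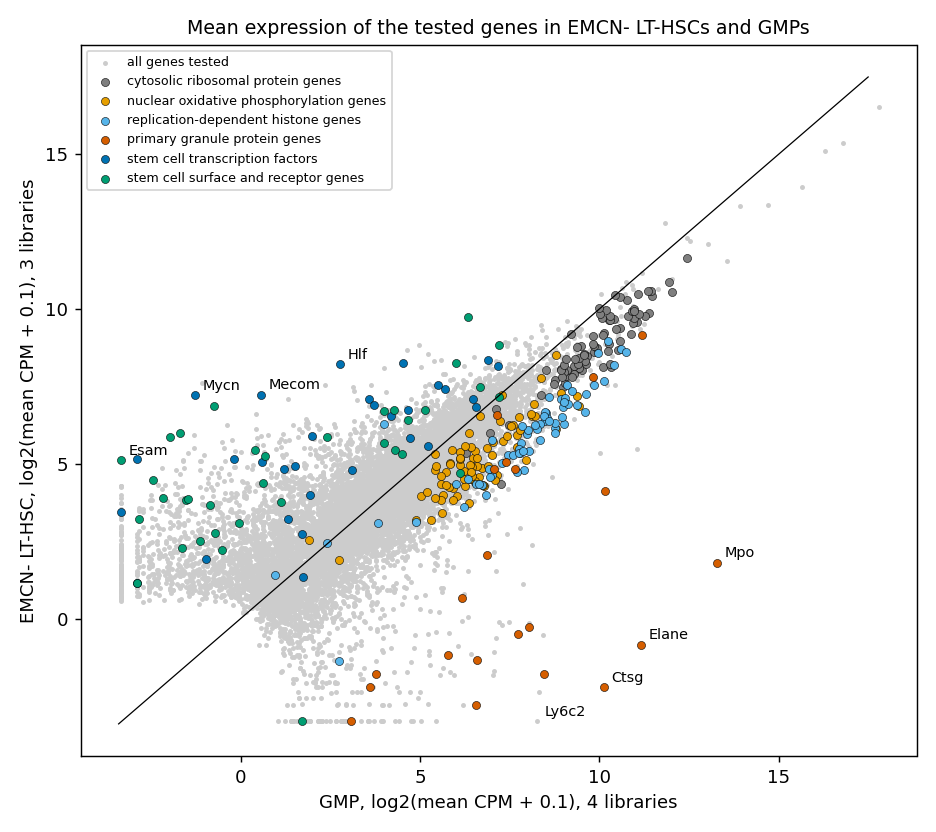
Mean level of each tested gene in GMPs (x axis) and in EMCN- LT-HSCs (y axis), as log2 of CPM plus 0.1, with 6 gene lists in colour and the line of equal level in black. Most of the primary granule genes lie towards the lower right, with Mpo at 9994 ± 1115 CPM in GMPs and 3.399 ± 1.595 CPM in EMCN- LT-HSCs, and most stem cell genes lie above the line.

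At equal total counts more genes had a count in EMCN- LT-HSCs, and the most abundant genes took a smaller share of the counts. With all libraries thinned to the smallest total, 19395 ± 588 genes had at least 1 count in EMCN- LT-HSCs (SD, n = 3) and 17468 ± 403 in GMPs (n = 4). The groups did not overlap, with 18914 to 20051 genes against 16869 to 17708. Among protein-coding genes the 50 most abundant took 13.4 ± 0.447% of the counts in EMCN- LT-HSCs and 19.7 ± 0.461% in GMPs. Over all genes, with mitochondrial ribosomal RNA and 5 abundant noncoding RNAs left out, the share was 19.8 ± 4.71% against 28.6 ± 2.84%. For each of these 3 measures the two-sided exact permutation p was 0.0571, the smallest that 3 against 4 libraries can give, so none could pass 0.05. Matching the totals did not match the counts left for other genes. Mitochondrial ribosomal RNA and the 5 noncoding RNAs (4.896 ± 0.622% against 7.82 ± 0.388%) took a larger share in GMPs. Their part in the number of genes detected was not tested. With the same RNAs left out, Mpo alone took 1.25 ± 0.166% of the counts in GMPs.

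The genes of the sorting antibodies followed the gates, which used their proteins, so their values check the labels and are not a finding. Sca-1 (Ly6a) stood at 8.49, 23.3 and 12.1 CPM in the EMCN- libraries and 0.271, 0, 0.603 and 0.164 CPM in the GMP libraries, and CD150 (Slamf1) at 22.2, 21.3 and 19.3 against 2.04, 0.572, 2.01 and 1.15 CPM. CD48 (Cd48), which LT-HSCs lack, had 3.25 ± 1.48 CPM in EMCN- LT-HSCs and 54.4 ± 9.82 CPM in GMPs. The Fc gamma receptor genes, whose proteins mark GMPs, were also lower in EMCN- LT-HSCs, with Fcgr3 at 0.837 ± 0.298 against 179.8 ± 11.6 CPM and Fcgr2b at 1.87 ± 1.02 against 47.98 ± 1.83 CPM. The c-Kit gene Kit was measured at 458 ± 49.2 CPM in EMCN- LT-HSCs and 148 ± 21.9 CPM in GMPs.

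Emcn itself was not absent from the cells sorted as negative for its protein. Its transcript was measured at 11.4, 12.6 and 14.2 CPM in the EMCN- libraries and 0.136, 0, 1.21 and 0.492 CPM in the GMP libraries. Every EMCN- library lay above every GMP library, and the log2 difference was 4.901 ± 0.55 (edgeR adjusted p = 3.2e-06). Of the lineage genes, Itgam, which encodes CD11b, was at 9.92 ± 2.92 CPM in EMCN- LT-HSCs and 21.5 ± 3.69 CPM in GMPs, and Cd3e and Ly6g had too few counts to be tested. Ptprc (CD45, of which B220 is an isoform) rose by 0.82 ± 0.103. Cd34, whose protein is often used to separate stem cells from progenitors, differed by -0.05 ± 0.104 (edgeR adjusted p = 0.692), with 142 ± 6.86 CPM in EMCN- LT-HSCs and 147 ± 15.01 CPM in GMPs, and with total-count scaling the difference was 0.65 (edgeR adjusted p = 0.000433).

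The genes of the primary granules were far lower in EMCN- LT-HSCs than in GMPs. All 21 tested members fell, against 26.4% of all genes, with a median log2 change of -6.59, or -6.06 with genes at 0 set to their bound. The list was chosen with these results known, and 9 of the 21 passed the count filter through GMP libraries alone, so its count is a description. Their summed level was 965 to 1088 CPM in the EMCN- libraries and 17591 to 20879.9 CPM in the GMP libraries. Mpo (ENSMUSG00000009350.13, chromosome 11, 87793581 to 87804413, plus strand, GRCm38), the gene of myeloperoxidase, which makes hypochlorous acid from hydrogen peroxide, had 4.11, 1.57 and 4.52 CPM in the EMCN- libraries and 11125, 10215, 8456 and 10178 CPM in the GMP libraries. The mean in GMPs was 2989.7-fold that in EMCN- LT-HSCs by the fit, a log2 change of -11.55 ± 0.37 (edgeR adjusted p = 1.04e-07).

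The granule proteases moved with it. Elane (ENSMUSG00000020125.7, chromosome 10, 79886247 to 79888215, plus strand), the gene of neutrophil elastase, had 0, 0.143 and 1.23 CPM against 2215, 2336, 2192 and 2453 CPM, which is a log2 change of -12.53 ± 0.49 (edgeR adjusted p = 8.03e-07). Ctsg (ENSMUSG00000040314.2, chromosome 14, 56099881 to 56102574, minus strand), the gene of cathepsin G, gave 2 counts in all EMCN- libraries and 28545 in the GMP libraries, at 1104, 1207, 1060.02 and 1098 CPM. The ratio of its CPM pooled over each group's libraries was 10758 (95% counting interval 2978 to 88835). Ms4a3 (ENSMUSG00000024681.11, chromosome 19, 11629496 to 11640851, minus strand), a membrane protein gene with expression largely limited to GMPs and their progeny, had 0, 0.572 and 0 CPM against 352, 361, 341 and 363 CPM and fell by 10.602 ± 0.31. Prtn3 (ENSMUSG00000057729.12, chromosome 10, 79874476 to 79883174, plus strand), the gene of proteinase 3 next to Elane on the chromosome, was chosen after its values were seen. It remained at 13.4, 18.6 and 20.1 CPM in the EMCN- libraries, against 991, 1274, 1219.5 and 1137 CPM. Per kilobase of exon, GMP levels ran from 2919 CPM for Mpo through 2336 for Elane, 1081 for Ctsg and 667 for Prtn3 to 188 for Ms4a3. In EMCN- LT-HSCs the highest of the 5 was Prtn3, at 10.03 CPM per kilobase, and Mpo was at 0.993.

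Sequence before the start of these 5 genes is shown because the genes moved together and because PU.1 and C/EBP factors are known regulators of this group. They are RefSeq sequences of GRCm38.p6, read 5′ to 3′ on each gene's own strand, in lower case with matches in capitals. Each is the 250 bases before the RefSeq start, less the last bases where GENCODE M21, which starts 3 of the genes earlier, has an exon of the gene: 203 for Mpo, 65 for Elane and 53 for Prtn3. The gene span given for Prtn3 above begins further upstream, with a noncoding transcript. The motifs searched on both strands were GAGGAAG for PU.1 and TTNNGNAA for C/EBP, and no 2 matches shown overlap. The stretches shown lie at chr11:87793534-87793580 (plus strand) for Mpo, chr10:79886062-79886246 (plus) for Elane, chr10:79879417-79879613 (plus) for Prtn3, chr14:56102575-56102824 (minus) for Ctsg and chr19:11640852-11641101 (minus) for Ms4a3.
Mpo: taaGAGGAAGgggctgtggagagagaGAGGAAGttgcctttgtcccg
Elane: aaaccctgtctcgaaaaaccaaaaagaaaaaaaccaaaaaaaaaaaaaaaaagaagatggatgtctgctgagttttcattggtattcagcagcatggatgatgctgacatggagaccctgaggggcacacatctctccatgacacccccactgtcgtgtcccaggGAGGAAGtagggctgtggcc
Prtn3: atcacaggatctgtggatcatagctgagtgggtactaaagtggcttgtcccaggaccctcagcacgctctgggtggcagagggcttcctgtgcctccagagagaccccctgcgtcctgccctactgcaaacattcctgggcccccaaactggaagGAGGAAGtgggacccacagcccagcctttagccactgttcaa
Ctsg: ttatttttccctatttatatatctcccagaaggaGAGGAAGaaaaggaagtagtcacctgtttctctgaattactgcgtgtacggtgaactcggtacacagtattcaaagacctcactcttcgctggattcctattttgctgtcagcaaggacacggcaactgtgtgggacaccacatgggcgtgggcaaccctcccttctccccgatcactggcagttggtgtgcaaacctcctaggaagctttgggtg
Ms4a3: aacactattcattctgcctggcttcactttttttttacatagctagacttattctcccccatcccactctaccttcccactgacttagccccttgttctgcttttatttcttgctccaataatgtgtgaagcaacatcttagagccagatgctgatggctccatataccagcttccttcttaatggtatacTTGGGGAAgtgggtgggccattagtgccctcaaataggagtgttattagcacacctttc
GAGGAAG occurred in the windows of Mpo, at 2 places, and of Elane, Prtn3 and Ctsg, each on the gene's own strand. Every match in the 250 bases falls in the stretch shown. For Elane it lay 20 to 14 bases and for Prtn3 42 to 36 bases before the end of the stretch. Ms4a3 held TTNNGNAA, 59 to 52 bases before the end, and no GAGGAAG. Of all 32851 windows of 250 bases, 10.6% held GAGGAAG and 36.8% held TTNNGNAA. Of the 23 listed granule genes 18 had a window in the table, and 6 of these held GAGGAAG and 8 held TTNNGNAA. A match is a string of letters and not a measured binding site.

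**Figure D2:**
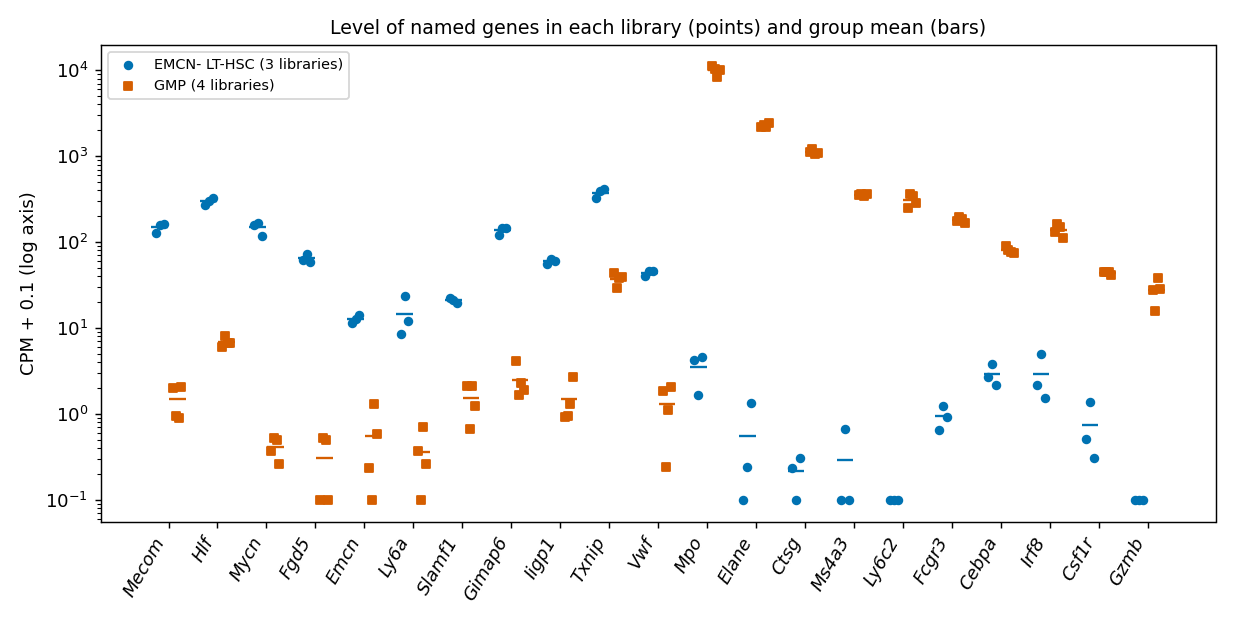
CPM plus 0.1 on a log axis for 21 named genes in each library, EMCN- LT-HSCs as blue circles and GMPs as orange squares, with bars at group means. From Mecom to Vwf the EMCN- libraries lie above the GMP libraries, and from Mpo to Gzmb below them; Ly6c2 and Gzmb had 0 counts in EMCN- LT-HSCs.

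Genes of later granules were also low in EMCN- LT-HSCs, from much lower levels in GMPs. Of 11 tested members of the secondary and tertiary granule list, 9 fell and 1 rose, with a median of -6.93 (-5.86 with genes at 0 set to their bound). The list also holds genes whose products are not granule proteins, Ltb4r1 and Padi4 among them. The other 13 of the 24 listed had too few counts to be tested, and 8 of the 11 passed the count filter through GMP libraries alone, so the count says nothing of the list as a whole. S100a8, a subunit of the calcium-binding complex calprotectin, was measured at 0.137, 0.572 and 0.411 CPM in the EMCN- libraries and 78.6, 218, 118 and 125 CPM in the GMP libraries, so the GMP libraries differed among themselves by several fold. Fcnb, the gene of ficolin B, had 0 counts in EMCN- LT-HSCs and 11.8 ± 3.83 CPM in GMPs, at least 76.9-fold higher. Ltb4r1, the leukotriene B4 receptor gene, had 0 counts against 10.1 ± 1.34 CPM, at least 64.1-fold. The gene that rose was Padi4, whose product citrullinates histones, with 36.7 ± 3.85 CPM in EMCN- LT-HSCs and 5.87 ± 1.48 CPM in GMPs (2.65 ± 0.1997).

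Other parts of the phagocyte equipment were reduced as well. All 7 phagocyte oxidase genes fell, with a median of -2.51. Cybb, the catalytic subunit, stood at 0, 1.43 and 0.411 CPM against 24.2, 51.6, 38.4 and 36.1 CPM, and Ncf1, a cytosolic subunit, at 6.41 ± 2.04 against 118 ± 12.9 CPM. Hvcn1, the voltage-gated proton channel that supports the oxidase, fell by 3.95 ± 0.24. Of 29 tested monocyte and dendritic cell genes, 21 fell and 3 rose, with a median of -2.87. Of these 29, 9 passed the count filter through GMP libraries alone.

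Several monocyte genes were close to undetected in EMCN- LT-HSCs. Ly6c2 (ENSMUSG00000022584.14, chromosome 15, 75108158 to 75111970, minus strand), which encodes a Ly6C antigen of monocytes and has the near-identical copy Ly6c1 that could share its reads, had 0 counts in all 3 EMCN- libraries and 252, 363, 341 and 284 CPM in the GMP libraries. Its level in GMPs was at least 1967-fold higher, taking 3 counts over the 3 EMCN- libraries as the floor. F13a1, the factor XIII A chain, gave 2 counts in EMCN- LT-HSCs and 322 ± 31.3 CPM in GMPs, a ratio of 3098 (95% counting interval 857 to 25584). Ly86 (MD-1) fell by 7.41 ± 0.37. The 2 genes with the largest rise in the monocyte and dendritic list were of antigen presentation, Cd74 at 16.6, 32.3 and 23.8 CPM against 0.679, 4.86, 6.64 and 5.9002 CPM and H2-Aa at 11.1 ± 1.28 against 1.79 ± 0.903 CPM.

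Among genes with a mean of at least 20 CPM, others with the largest reductions included several with secreted or membrane products. Clec5a, a lectin receptor of myeloid cells, had 0 counts against 43.4 ± 7.601 CPM in GMPs, at least 282-fold higher in GMPs. Hp (haptoglobin) gave 1 count in EMCN- LT-HSCs and 95.4 ± 12.6 CPM in GMPs, a ratio of 1841 (95% counting interval 330.2 to 72760.4). C3, the central complement component, fell by 9.21 ± 0.27, from 135 ± 22.9 CPM in GMPs to 0.209 ± 0.0746 CPM. Igsf6 fell by 8.48 ± 0.198, the phospholipid flippase gene Atp8b4 fell by 9.3003 ± 0.25 and the choline dehydrogenase gene Chdh fell by 9.18 ± 0.28. For each of the genes named in this paragraph every GMP library lay above every EMCN- library, as their selection required.

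Among myeloid transcription factors the pattern was divided. Of 25 tested, 12 fell (48%, against 26.4% of all genes) and 6 rose (24%, against 28.4%). The median was -0.02. Its sign turned with upper-quartile or total-count scaling, with mouse as a block and without EMCN- replicate 4, GMP replicate 1 or GMP replicate 3. Those that fell most were factors of granulocyte and monocyte commitment. Cebpa, needed to form GMPs at all, had 2.6003, 3.72 and 2.05 CPM in the EMCN- libraries and 90.8, 80.3, 75.8 and 75.2 CPM in the GMP libraries, a log2 change of -4.81 ± 0.18 (edgeR adjusted p = 4.97e-12). Irf8, which steers progenitors towards monocytes and dendritic cells, had 2.05, 4.86 and 1.44 CPM against 129, 160.4, 151 and 112 CPM (-5.57 ± 0.32). Cebpe, which drives the later granules, gave 2 counts in EMCN- LT-HSCs and 21.1 ± 2.09 CPM in GMPs, a ratio of 204 (95% counting interval 56.3 to 1691). Cebpd fell by 5.13 ± 0.23. In the opposite direction Ets2 rose by 1.32 ± 0.22 and the retinoid receptor gene Rxra by 2.37 ± 0.39.

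Receptors for cytokines and growth factors changed in both directions. Of 37 tested, 14 rose (37.8% against 28.4% of all genes) and 16 fell (43.2% against 26.4%). Their median of -0.31 turned to 0.39 with total-count scaling. The macrophage colony-stimulating factor receptor gene Csf1r had 0.411, 1.29 and 0.205 CPM against 44.2, 45.3, 44.6 and 41.6 CPM, and the chemokine receptor gene Ccr2, used by monocytes to leave the marrow, 0.184 ± 0.208 against 61.2 ± 9.05 CPM. Tek, the angiopoietin receptor gene TIE2, had 37.8 ± 1.61 against 1.52 ± 0.5503 CPM. Flt1, a vascular endothelial growth factor receptor gene, went the other way with 0.436 ± 0.512 CPM in EMCN- LT-HSCs and 7.99 ± 0.78996 CPM in GMPs.

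The transcription factors of stem cells were higher in EMCN- LT-HSCs almost without exception. Of 30 tested, 28 rose and none fell, against 28.4% and 26.4% of all genes, with a median log2 change of 2.75. Of these 30, 6 reached the count filter only in EMCN- libraries. The 2 that did not pass the test were Runx1 and Klf2. Mecom (ENSMUSG00000027684.16, chromosome 3, 29951296 to 30548008, minus strand), the EVI1 gene needed for stem cell self-renewal, had 128, 159.8 and 163 CPM in the EMCN- libraries and 1.9002, 0.858, 0.804 and 1.97 CPM in the GMP libraries. It rose by 6.71 ± 0.203, 105-fold (edgeR adjusted p = 6.01e-13). Mycn (ENSMUSG00000037169.15, chromosome 12, 12936093 to 12941914, minus strand), a MYC family gene, had 160.1, 168 and 117 CPM against 0.271, 0.429, 0.402 and 0.164 CPM (8.797 ± 0.23, edgeR adjusted p = 6.11e-14).

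Hlf, a PAR bZIP factor gene known as a marker of stem cells, was measured at 272, 303 and 322 CPM against 5.97, 8.01, 6.64 and 6.56 CPM (5.45 ± 0.13). Nkx2-3, a homeobox gene, had 35.98 ± 4.34 CPM in EMCN- LT-HSCs and 1 count in the GMP libraries, a ratio of 927 (95% counting interval 166 to 36681). Tcf15, a bHLH gene linked to stem cell quiescence, had 10.7 ± 1.37 CPM and 0 counts in GMPs, at least 90.2-fold higher. Eya2, a transcriptional cofactor gene, rose by 5.47 ± 0.21. The groups did not overlap for any of these genes.

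Surface and receptor genes of stem cells were also higher in EMCN- LT-HSCs, with few exceptions. Of 35 tested, 32 rose and 2 fell, with a median of 3.48. Of these 35, 16 reached the count filter only in EMCN- libraries, so the count is a description. Fgd5, a guanine nucleotide exchange factor gene used to label stem cells, had 61.6, 72.2 and 59.4 CPM in the EMCN- libraries and 0, 0.429, 0.402 and 0 CPM in the GMP libraries (8.22 ± 0.33, edgeR adjusted p = 3.3e-11). Esam, an adhesion molecule of endothelium and stem cells, had 32.3, 41.3 and 30.2 CPM and 0 counts in all 4 GMP libraries, at least 297-fold higher. The cation channel gene Trpc6 had 58.5 ± 5.77 against 0.153 ± 0.178 CPM. The 2 members that fell were the chemokine receptor gene Cxcr4, at 26.02 ± 2.45 CPM against 69.6 ± 4.96 CPM (-1.42 ± 0.12), and Gpr183, which was picked out after its values were seen. Cd34 did not pass the test.

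Among named genes with a mean of at least 20 CPM and groups that did not overlap, others with a large rise included matrix and signalling genes. Less abundant genes were outside this choice, and in the lowest tertile by mean CPM the largest rise was 9.96. Mmrn1 (ENSMUSG00000054641.10, chromosome 6, 60924976 to 60989378, plus strand), the gene of multimerin 1 in platelets and endothelium, had 168, 189 and 224 CPM against 0, 0.143, 0.201 and 1.15 CPM (9.01 ± 0.38, edgeR adjusted p = 1.71e-07). Col4a1 and Col4a2, neighbouring genes of basement membrane collagen, had 60.6 ± 5.98 and 77.2 ± 10.99 CPM in EMCN- LT-HSCs and 0.308 ± 0.231 and 0.665 ± 0.296 CPM in GMPs. Tgm2, a transglutaminase gene, had 97.1 ± 16.3 against 1.25 ± 0.432 CPM, and Pglyrp2, a peptidoglycan amidase gene, 52.3 ± 4.49 against 0.593 ± 0.412 CPM. Plxdc2 rose by 6.14 ± 0.27 and the scaffold gene Shank3 by 5.77 ± 0.205.

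The Hox and imprinted genes with enough counts to be tested were mostly higher in EMCN- LT-HSCs. All 11 Hox cluster genes tested rose, of 43 listed, with a median of 2.27. A gene high in only one of the groups is more likely to enter such a test, so the count describes the 11 alone, 8 of which reached the filter only in EMCN- libraries, and without GMP replicate 2 only 7 were called. Hoxa3 had 9.17, 12.01 and 9.45 CPM against 0.136, 0.858, 0.402 and 0.983 CPM, Hoxb3 6.19 ± 1.66 against 1.32 ± 0.5097 CPM, and Hoxa5 4.38 ± 1.901 against 0.899 ± 0.343 CPM. Of 33 imprinted genes, which are read from 1 parental copy, 15 were tested: 12 rose and none fell. Of the 15, 6 reached the count filter only in EMCN- libraries. Igf2r, the receptor gene that clears insulin-like growth factor 2, had 29.5 ± 4.91 against 2.71 ± 1.26 CPM and rose by 3.42 ± 0.27. Sgce rose by 4.89 ± 0.34. The cell cycle inhibitor gene Cdkn1c (p57) had 11.4, 14.4 and 16.6 CPM in the EMCN- libraries and 2 counts in the GMP libraries, a ratio of 176 (95% counting interval 48.2 to 1459).

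**Figure D3:**
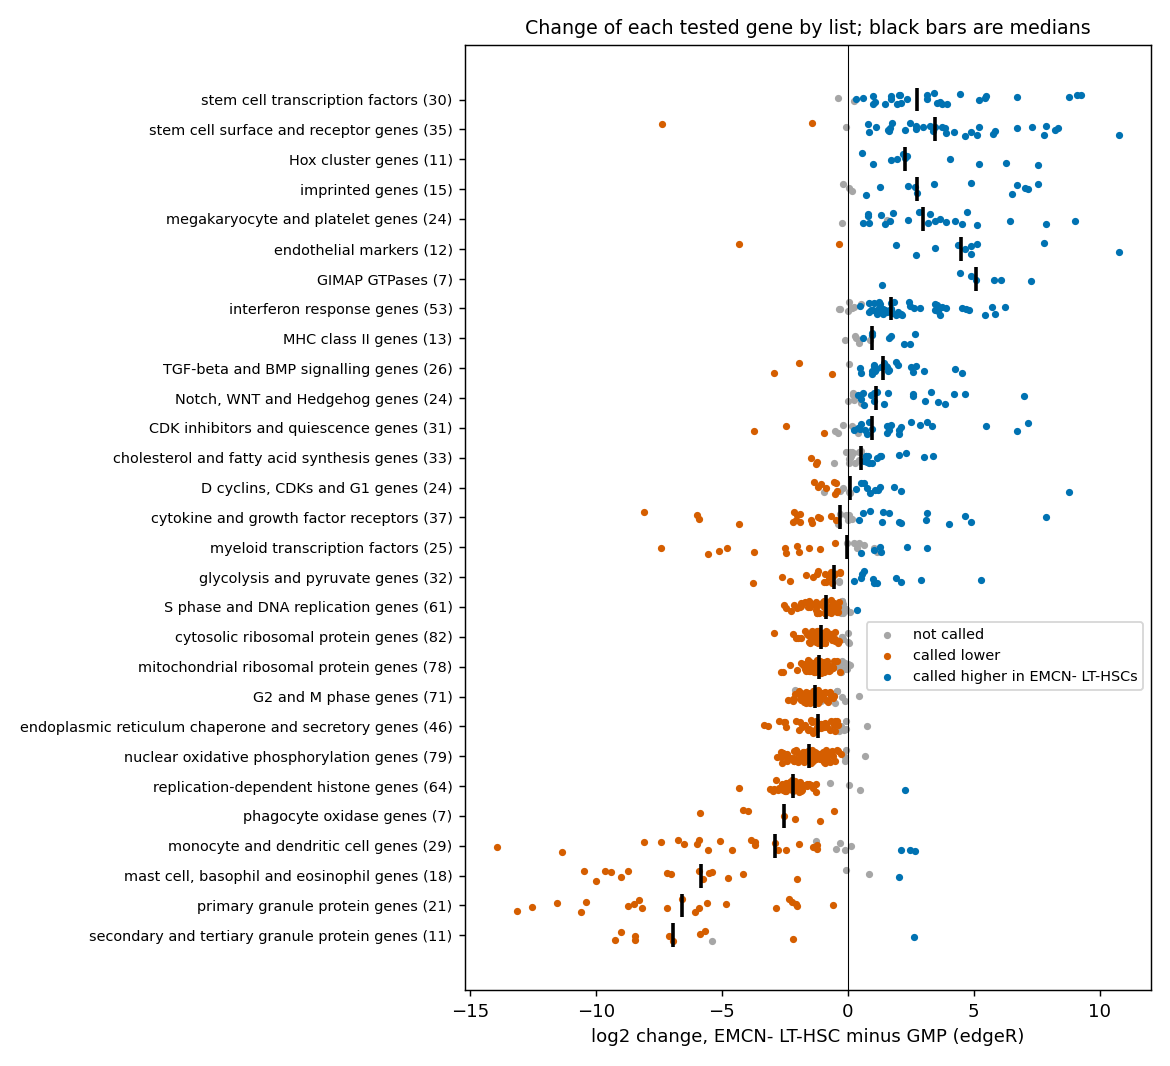
Log2 change of every tested member of 29 gene lists (x axis, EMCN- LT-HSC minus GMP by edgeR), with the number tested in brackets, members called higher in blue, called lower in orange and not called in grey. Medians run from 5.105 for GIMAP GTPases to -6.93 for secondary and tertiary granule genes.

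Genes of cell division were lower in EMCN- LT-HSCs. Of 61 tested S phase and DNA replication genes, 47 fell and 1 rose, with a median of -0.88. With total-count scaling 21 were called lower and 12 higher, with a median of -0.17. Rrm2, a subunit of the enzyme that makes deoxynucleotides, had 18.5, 14.7 and 16.4 CPM in the EMCN- libraries and 100.2, 121, 78.2 and 86.9 CPM in the GMP libraries (-2.54 ± 0.16, edgeR adjusted p = 1.81e-09). Gmnn, the inhibitor of replication licensing, fell by 2.15 ± 0.13 and the cyclin gene Ccne2 fell by 2.23 ± 0.16. Of 71 tested G2 and M phase genes, 59 fell and none rose, with a median of -1.28, and with total-count scaling 28 were called lower and 2 higher (median -0.57). Birc5 (survivin) had 13.1, 10.6 and 7.39 CPM against 35.7, 78.8, 46.7 and 59.2 CPM, and the regulator gene Mybl2 10.3 ± 2.22 against 46.1 ± 2.98 CPM.

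These transcripts were reduced, not lost. The summed level of the G2 and M phase genes was 1722 to 2463 CPM in the EMCN- libraries and 3535 to 5512 CPM in the GMP libraries, and that of the S phase genes 2926 to 3556 CPM in the EMCN- libraries and 4736 to 5503 CPM in the GMP libraries. Kif15, a spindle motor gene, still had 21.9 ± 3.79 CPM in the stem cells against 96.995 ± 21.4 CPM in GMPs.

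Histone genes of the replication-dependent clusters showed a larger drop with wide spread among GMP libraries. Of 64 tested, 60 fell and 1 rose, with a median of -2.17. With mouse as a block the number that fell was 29, and the correction for length and GC content moved the median to -1.098. Their summed level was 5354 to 7107 CPM in the EMCN- libraries and 14883 to 34193 CPM in the GMP libraries. The linker histone gene H1f5 had 117, 88.6 and 101 CPM in the EMCN- libraries and 459.7, 1033, 705 and 928 CPM in the GMP libraries, and H3c8 28.05 ± 4.92 against 238 ± 73.3 CPM. The gene of the list that rose was H1f0, which encodes a replacement linker histone typical of resting cells and not a replication-dependent one, with 77.8 ± 5.55 against 16.04 ± 2.62 CPM (2.27 ± 0.14). Histone genes are near-identical copies whose reads Salmon divides between them, so single members are uncertain.

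Regulators of G1 were mixed, and most tested members of a joint list of CDK inhibitors and quiescence genes were higher. Of 24 tested D cyclins, CDKs and G1 genes, 11 rose (45.8%, against 28.4% of all genes) and 8 fell (33.3%, against 26.4%). The median of 0.08 fell to -0.05 with the length and GC correction. Cdk6, the G1 kinase whose level separates resting from primed stem cells, had 197, 133 and 201 CPM against 434, 426, 471 and 459 CPM (-1.34 ± 0.13). Ccnd2 went the other way with 275 ± 12.5 against 112 ± 9.92 CPM, and Ccnd1 rose by 2.12 ± 0.51. Of 31 tested CDK inhibitors and quiescence genes, 23 rose and 3 fell, with a median of 0.98.

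Of the inhibitors in that list Cdkn1a, the p21 gene, had too few counts to be tested, with 0, 3 and 2 counts in the EMCN- libraries and 27, 16, 7 and 11 in the GMP libraries, and Cdkn2a and Cdkn2b had 0 in all 7. Among the other members Txnip, an inhibitor of thioredoxin and of glucose uptake, had 327, 391 and 416 CPM in the EMCN- libraries and 43.2, 29.4, 38.01 and 39.7 CPM in the GMP libraries (3.33 ± 0.13, edgeR adjusted p = 7.69e-12). Egr1, an immediate early factor that keeps stem cells in the marrow, had 34.6, 35.9 and 36.97 CPM against 0.136, 1.43, 0.603 and 0.983 CPM. Ndn (necdin) had 14.7 ± 3.36 CPM and 3 counts in GMPs, a ratio of 121 (95% counting interval 40.9 to 589). The members that fell most were Gfi1, which restrains stem cell division but also drives granulocyte formation, with 3.36 ± 1.08 against 43.03 ± 4.93 CPM, and Klf4, with 1.88 ± 0.391 against 10.6 ± 4.03 CPM.

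The machinery that makes proteins was lower in EMCN- LT-HSCs. Of 82 tested cytosolic ribosomal protein genes, 76 fell and none rose, with a median of -1.06 and a summed level of 47412 to 52532 CPM in the EMCN- libraries and 96131 to 104944 CPM in the GMP libraries. Rpl41 had 304, 287 and 256 CPM against 1234, 1461, 1305 and 1122 CPM, and Rps27l, a p53-induced relative of Rps27, fell from 153 ± 28.5 CPM in GMPs to 20.1 ± 2.77 CPM. Of 78 mitochondrial ribosomal protein genes, 65 fell and none rose (median -1.14), with Mrpl33 at 18.6 ± 1.25 against 111 ± 11.2 CPM. With total-count scaling 42 mitochondrial ribosomal protein genes were called lower and 8 higher, and 51 and 8 of the cytosolic ones. Ribosome biogenesis genes and translation factors depended on the scaling. Of 61 ribosome biogenesis genes 23 fell (37.7%, against 26.4% of all genes) and 4 rose (6.56%, against 28.4%). Of 64 translation factors 30 fell (46.9%) and 5 rose (7.81%). The medians of these 2 lists, -0.21 and -0.28, turned to 0.49 and 0.42 with total-count scaling. There 34 and 35 were called higher and 5 and 4 lower. Eif2ak2 (PKR), an interferon-induced kinase and not a factor of normal initiation, was among the translation factors that rose (1.15 ± 0.14).

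Transcript length moved with the direction of change. In the shortest tertile of genes by exon length 656 rose and 1585 fell, with a median of -0.4000, and in the longest tertile 1859 rose and 822 fell, with a median of 0.24. After correction for length and GC content the median of the cytosolic ribosomal protein genes was -0.32, with 43 called lower and 8 called higher. For the mitochondrial ribosomal protein genes it was -0.79. Such a correction also removes any true change that goes with length, so the 2 cannot be told apart here.

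**Figure D4:**
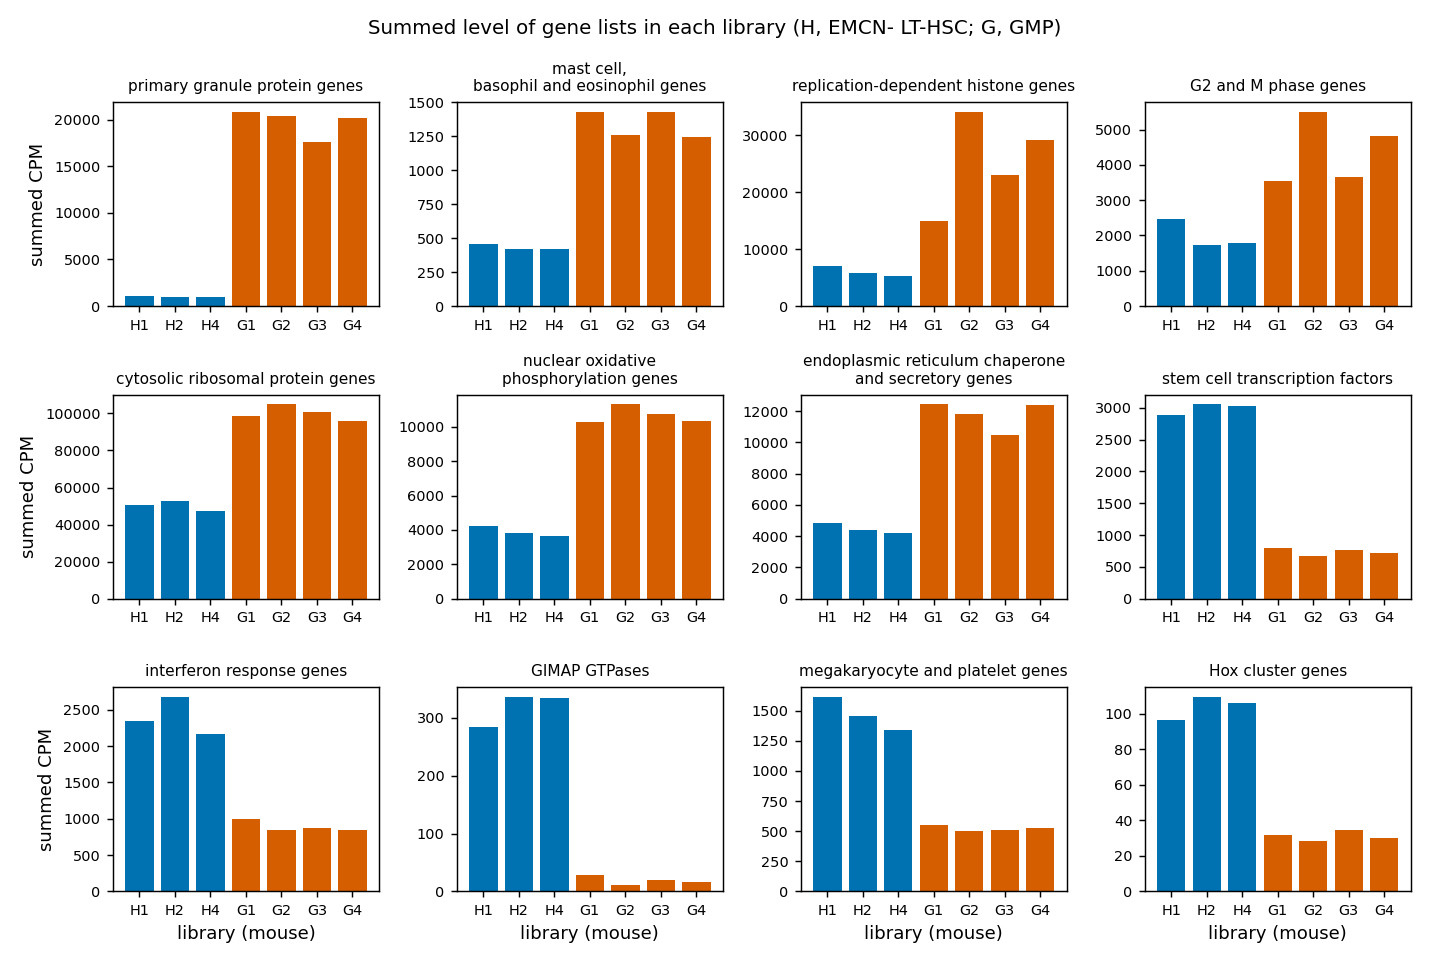
Summed CPM of 12 gene lists in each library (bars from 0; H, EMCN- LT-HSC of mice 1, 2 and 4; G, GMP of mice 1 to 4). The groups do not overlap in any panel, and the histone sum ranges from 14883 to 34193 CPM among GMP libraries.

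Protein quality control and secretion were lower too. Of 46 endoplasmic reticulum chaperone and secretory genes 40 fell and none rose, with a median of -1.17, or -1.002 with the length and GC correction. Sec61b, part of the channel through which secretory proteins enter, had 29.01, 35.6 and 31.4 CPM in the EMCN- libraries and 264, 337, 288 and 256 CPM in the GMP libraries (-3.16 ± 0.13, edgeR adjusted p = 1.3e-11). Sdf2l1, a chaperone complex gene, fell by 3.32 ± 0.22 and Ostc, of the oligosaccharyl transferase, fell by 2.51 ± 0.12. The calcium-binding chaperone gene Calr had 616, 548 and 556 CPM against 2564, 2455, 1896 and 2531 CPM. Of 38 proteasome subunit genes 28 fell and 1 rose (median -0.78). With total-count scaling 15 were called lower and 8 higher (median -0.07), and with the length and GC correction 21 lower and 1 higher (median -0.396). Psma3, a core subunit, had 73.1 ± 9.05 against 276 ± 27.8 CPM. The one that rose was Psma8, a subunit described in testis, with 7.49 ± 2.05 against 3.32 ± 0.321 CPM.

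Respiratory chain genes were lower in EMCN- LT-HSCs. Of 79 tested nuclear oxidative phosphorylation genes, 75 fell and none rose, with a median of -1.54. After the length and GC correction the median was -0.71, with 63 called lower and 2 higher. Uqcrq, a subunit of complex III, had 43.2, 31.6 and 30.4 CPM against 230.5, 260.5, 266 and 231 CPM, and Cox7b of complex IV 70.02 ± 8.796 against 444 ± 59.3 CPM. Of the 13 protein genes of the mitochondrial genome 10 fell and none rose, with a median of -1.0001 that shrank to -0.19 with the correction, where 2 were called lower and 1 higher. With total-count scaling 6 were called lower and 1 higher. As a share of all counts these genes took 1.52 to 2.08% in the EMCN- libraries and 1.85 to 2.46% in the GMP libraries, and the groups overlapped (two-sided exact permutation p = 0.171). ND1, a subunit of complex I, had 925, 797 and 779 CPM against 2538, 2522, 2743 and 2199 CPM.

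Glycolysis genes went both ways. Of 32 tested glycolysis and pyruvate genes, 11 rose (34.4%, against 28.4% of all genes) and 18 fell (56.25%, against 26.4%). The median of -0.53 turned to 0.17 with total-count scaling, where 6 were called lower. Hk3, a hexokinase gene of myeloid cells, had 9.44, 13.7 and 8.63 CPM in the EMCN- libraries and 149.98, 140.1, 143 and 145 CPM in the GMP libraries. Pgam1 fell by 2.63 ± 0.11, and Mpc1, part of the carrier that brings pyruvate into mitochondria, fell by 2.31 ± 0.14. In the other direction the glucose transporter gene Slc2a3 had 74.98 ± 2.29 against 10.1 ± 1.78 CPM, and the aldolase gene Aldoc 11.3 ± 3.14 against 0.261 ± 0.292 CPM.

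Genes of the tricarboxylic acid cycle and of nucleotide synthesis were lower in part, depending on the scaling. Of 22 TCA cycle genes 13 fell and 1 rose, and of 35 nucleotide synthesis genes 20 fell and none rose. Their medians of -0.46 and -0.42 turned to 0.25 and 0.28 with total-count scaling, where 2 and 8 were called lower and 8 and 14 higher. Idh1, the cytosolic isocitrate dehydrogenase gene, had 23.8 ± 2.77 against 97.7 ± 10.1 CPM, and the nucleoside diphosphate kinase gene Nme2 55.9 ± 5.45 against 301 ± 25.3 CPM.

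Lipid synthesis went the other way. Of 33 cholesterol and fatty acid synthesis genes 16 rose, 48.5% against 28.4% of all genes, and 3 fell, with a median of 0.51, and with total-count scaling 28 were called higher. Fads2, a desaturase of polyunsaturated fatty acids, had 46.7, 49.4 and 34.9 CPM against 5.56, 2.86, 2.82 and 5.24 CPM. Its neighbour Fads1 had 45.9 ± 2.55 against 9.32 ± 1.39 CPM, and Srebf2, the regulator of cholesterol genes, 150.4 ± 11.2 against 36.9 ± 5.88 CPM. Fdps, an enzyme of the mevalonate pathway, fell by 1.47 ± 0.17. The cholesterol transporter gene Abca1 had 47.3 ± 11.3 CPM in EMCN- LT-HSCs and 4.93 ± 2.301 CPM in GMPs (3.26 ± 0.34).

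Redox and lysosomal genes were split. Of 39 glutathione and redox enzymes 13 rose (33.3%, against 28.4% of all genes) and 19 fell (48.7%, against 26.4%). Of 51 lysosome and autophagy genes 15 rose (29.4%, near the share of all genes) and 19 fell (37.3%). The medians of these lists, -0.29 and -0.09, turned to 0.41 and 0.61 with total-count scaling. There 21 and 31 were called higher and 12 and 9 lower. Gsr, which regenerates reduced glutathione, had 30.7 ± 4.55 against 208 ± 22.6 CPM and Mgst1 5.62 ± 0.672 against 55.6 ± 5.88 CPM. Gsta4, a glutathione transferase gene, rose by 2.83 ± 0.42. Cathepsin H (Ctsh) fell by 2.703 ± 0.23, and Gabarapl1, of the autophagosome, rose by 1.87 ± 0.13.

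Interferon response genes were higher in EMCN- LT-HSCs. Of 53 tested, 45 rose and none fell, 84.9% against 28.4% of all genes, with a median of 1.73. Of the 53, 7 reached the count filter only in EMCN- libraries. The summed level was 2168 to 2677 CPM in the EMCN- libraries and 844 to 991 CPM in the GMP libraries. Iigp1, an immunity-related GTPase, had 55.97, 63.7 and 59.6 CPM in the EMCN- libraries and 0.814, 0.858, 1.21 and 2.62 CPM in the GMP libraries (5.45 ± 0.25, edgeR adjusted p = 7e-11). The guanylate-binding protein gene Gbp9 had 16.4 ± 8.005 against 0.1803 ± 0.132 CPM, and Ifit3, which binds viral RNA, 11.4 ± 5.43 against 0.194 ± 0.2397 CPM. The RNA sensor genes that feed this response were higher as well, with Ddx58 (RIG-I) at 66.7 ± 1.34 against 10.3 ± 2.76 CPM and Ifih1 (MDA5) at 61.3 ± 4.54 against 16.6 ± 2.07 CPM. Over the whole list of sensors and Toll-like receptors 7 of 23 rose and 5 fell, near the background shares.

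GTPases of immunity-associated proteins (GIMAPs), best known for keeping lymphocytes alive, were all higher. The 7 tested of 8 listed rose, with a median of 5.105, and 4 of the 7 reached the count filter only in EMCN- libraries. Gimap6 had 119, 146 and 148 CPM against 4.07, 1.57, 2.21 and 1.803 CPM (5.79 ± 0.21, edgeR adjusted p = 9.54e-11), Gimap1 80.3 ± 8.92 against 3.59 ± 1.23 CPM and Gimap8 33.8 ± 4.88 against 0.228 ± 0.261 CPM. The genes lie in 1 cluster and are similar in sequence, so reads may be shared among them.

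Antigen presentation was higher in both classes, with chaperones as the exception. Of 24 MHC class I and peptide loading genes 16 rose and 4 fell, with a median of 0.71. H2-Q6 had 103 ± 14.7 against 14.9 ± 2.66 CPM and H2-Q7 95.4 ± 4.52 against 18.6 ± 4.299 CPM, though reads of such near-identical genes may be split between them. Pdia3, which like Calr serves folding in general, fell by 1.06 ± 0.11. Of 13 MHC class II genes 8 rose and none fell, with a median of 0.95. H2-Ob, which limits peptide loading, had 7.19 ± 1.101 against 2.18 ± 0.825 CPM.

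Most tested genes of signalling pathways tied to the stem cell niche had higher transcript levels in EMCN- LT-HSCs. The activity of these pathways was not measured. Of 26 tested TGF-beta and BMP signalling genes, 22 rose and 3 fell, with a median of 1.39. Among receptors, Tgfbr3 (betaglycan) had 77.6, 66.3 and 66.5 CPM against 3.53, 3.43, 2.61 and 2.29 CPM (4.54 ± 0.17, edgeR adjusted p = 4.55e-12), the co-receptor gene Eng 104 ± 16.3 against 16.04 ± 2.83 CPM and Bmpr2 84.8 ± 15.2 against 20.99 ± 3.28 CPM. Ltbp3, which stores latent TGF-beta in the matrix, rose by 2.596 ± 0.22. The target gene Id2 fell by 1.94 ± 0.397. Of 24 tested Notch, WNT and Hedgehog genes, of 38 listed, 19 rose and none fell. Of the 24, 7 reached the count filter only in EMCN- libraries. The median was 1.11, or 0.65 with the length and GC correction. The WNT receptor gene Fzd6 had 20.7 ± 4.58 against 1.42 ± 1.28 CPM, Fzd3 14.3 ± 4.94 against 0.714 ± 0.571 CPM and Fzd8 6.41 ± 1.57 against 0.241 ± 0.203 CPM.

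Programmes of other lineages were present in different ways. Of 24 tested megakaryocyte and platelet genes, of 33 listed, 22 rose and none fell, with a median of 3.01. Of these 24, 8 reached the count filter only in EMCN- libraries, so the count is a description. Their summed level was 1342 to 1614 CPM in the EMCN- libraries and 502 to 551 CPM in the GMP libraries. Vwf, the von Willebrand factor gene, which also marks a platelet-biased fraction of stem cells, had 39.96, 46.02 and 46.01 CPM in the EMCN- libraries and 1.76, 0.143, 1.01 and 1.97 CPM in the GMP libraries (5.15 ± 0.35). Gp5, a platelet glycoprotein gene, had 5.59 ± 2.94 against 0.177 ± 0.256 CPM. Of 12 endothelial markers tested, of 23 listed, 10 rose and 2 fell. Of the 12, 5 reached the count filter only in EMCN- libraries and 1 only in GMP libraries. Most of the markers that rose, Esam, Tek, Eng, Vwf and Emcn included, are also known in stem cells. Robo4 had 22.1 ± 3.37 CPM and 2 counts in GMPs, a ratio of 285 (95% counting interval 78.3 to 2357). Cldn5, Lyve1, Mmrn2 and Sox17 had 0 counts in all 7 libraries, and Cdh5, the defining cadherin of endothelium, gave 3 counts in all EMCN- libraries and 0 in GMPs. The summed level of the list was 363 to 426 CPM in the EMCN- libraries and 89.2 to 109 CPM in the GMP libraries.

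Lymphoid and erythroid genes gave a mixed picture. Of 14 lymphoid priming genes tested, of 31 listed, 8 rose and 2 fell, with a median of 1.29, which turned to -0.26 without a filter on low counts. Gata3 had 13.4, 16.9 and 16.8 CPM and 2 counts in the GMP libraries, a ratio of 198 (95% counting interval 54.2 to 1639.9), whereas Satb1, a chromatin organiser gene of T cell development, fell by 1.85 ± 0.19. Of 23 erythroid genes 6 rose (26.1%, against 28.4% of all genes) and 8 fell (34.8%, against 26.4%). The median of -0.24 changed sign under total-count scaling and 9 other settings. Without GMP replicate 2, 3 or 4 the number that fell was 5, 4 and 5. The carbonic anhydrase gene Car2 had 453, 379 and 404 CPM against 23.5, 26.3, 15.7 and 34.4 CPM, and Hemgn 30.2 ± 2.51 against 3.33 ± 2.54 CPM. In the opposite direction Slc4a1 (band 3) gave 1 count in EMCN- LT-HSCs and 1.22, 11.9, 11.1 and 6.06 CPM in GMPs, a ratio of 139 (95% counting interval 24.6 to 5507).

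Genes of mast cells, basophils and eosinophils were found in the GMP libraries. Of 18 tested, 13 passed the count filter through GMP libraries alone, so the counts are a description. In EMCN- LT-HSCs 15 of the 18 fell and 1 rose, with a median of -5.82 (-5.73 with genes at 0 set to their bound). Their summed level was 420.04 to 459 CPM in the EMCN- libraries and 1242 to 1430.2 CPM in the GMP libraries. Gzmb (granzyme B) had 0 counts in EMCN- LT-HSCs and 27.96, 15.9, 38.6 and 28.7 CPM in the GMP libraries, at least 172-fold higher in GMPs. Mcpt8, a protease gene typical of basophils, had 0 counts against 13.4, 16.01, 17.9 and 15.6 CPM (at least 99.2-fold), and Cma1, a mast cell chymase gene, 0 counts against 10.04, 6.86, 23.9 and 11.96 CPM (at least 78.9-fold). Hdc, which makes histamine, gave 1 count against 73.6 ± 9.48 CPM, a ratio of 1419 (95% counting interval 254 to 56059), and Ms4a2, a subunit of the IgE receptor, 1 count against 54.2, 15.01, 48.1 and 32.3 CPM, a ratio of 709 (95% counting interval 127 to 28014). Gata2, which stem cells and mast cells share, rose by 2.06 ± 0.397. The share of GMPs in the sort that carried these transcripts was not measured.

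Markers of mature cells were mostly low. B cell markers summed to 6.37 to 13.96 CPM in the EMCN- libraries and 57.5 to 92.9 CPM in the GMP libraries, with 2 of 12 testable, and Ighm, the heavy chain gene of IgM, had 0.684, 0 and 0 CPM in the EMCN- libraries and 38.95, 56.04, 63.8 and 39.7 CPM in the GMP libraries. Cd79a, of the B cell receptor complex, had 0 counts in EMCN- LT-HSCs and 6 over the 4 GMP libraries. Mature neutrophil markers summed to 23.6 to 29.2 CPM in the EMCN- libraries and 263 to 519 CPM in the GMP libraries, and 6 of 14 could be tested, all called lower, 4 of them having passed the count filter through GMP libraries alone, while Ly6g had 0 counts in all 7 libraries. Macrophage markers summed to 40.9 to 53.5 CPM in the EMCN- libraries and 57.4 to 73.8 CPM in the GMP libraries. Of 8 tested, 3 were higher and 3 lower (37.5% each, against 28.4% and 26.4% of all genes). Among these Vcam1 fell by 2.54 ± 0.24 and Axl rose by 1.82 ± 0.31. T and NK cell markers summed to 9.44 to 12.7 CPM in the EMCN- libraries and 2.72 to 4.89 CPM in the GMP libraries. Of 17 markers 3 were testable, and all 3 were higher. These 3 reached the count filter only in EMCN- libraries, so their count is a description. Of the 3, 1 passed without EMCN- replicate 2 and 1 with mouse as a block. Cd3e, Cd3g and Trac had 0 counts in all 7 libraries. Stromal and osteoblast markers summed to 74.3 to 79.5 CPM in the EMCN- libraries and 42.03 to 47.6 CPM in the GMP libraries, and 4 of 7 tested rose and 2 fell (3 with the length and GC correction, none with total-count scaling), with Runx2, one that rose, at 53.1 ± 4.801 against 25.97 ± 4.45 CPM. Plasma cell markers summed to 36.6 to 48.3 CPM in the EMCN- libraries and 119 to 143 CPM in the GMP libraries, with Xbp1, the factor that also expands the secretory pathway, at a log2 change of -1.09 ± 0.12. The part of stray mature cells in the differences above was not tested.

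Adhesion and chromatin genes differed gene by gene. Of 47 integrin and adhesion genes 27 rose (57.4%, against 28.4% of all genes) and 16 fell (34.0%, against 26.4%). Of the 47, 11 reached the count filter only in EMCN- libraries and 2 only in GMP libraries. The median was 0.76, and 8 were called lower with total-count scaling. Ocln (occludin, of tight junctions) had 7.72 ± 1.17 CPM in EMCN- LT-HSCs and 0 counts in GMPs, at least 65.01-fold higher. Cdh1 (E-cadherin) had 0 counts in EMCN- LT-HSCs and 7.42 ± 2.91 CPM in GMPs, at least 47.5-fold higher in GMPs. Itga1 gave 2 counts against 20.5 ± 3.05 CPM, a ratio of 197 (95% counting interval 54.2 to 1629). Of 55 chromatin and DNA methylation genes 28 rose (50.9%) and 9 fell (16.4%). The median was 0.34, or 0.04 with the length and GC correction, where 16 were called lower. With total-count scaling 45 were called higher. Tet1, which oxidises methylated cytosine, had 63.4 ± 10.9 against 14.6 ± 1.99 CPM, and the Polycomb genes Cbx6 and Cbx7 rose by 2.19 ± 0.13 and 2.35 ± 0.38. Chd7 fell by 2.34 ± 0.14. Of 318 tested zinc finger genes named Zfp 126 rose (39.6%) and 21 fell (6.60%), and 265 and 5 with total-count scaling. The median was 0.42, and Zfp831 had 54.9 ± 8.58 against 2.46 ± 1.42 CPM.

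Stress and survival genes showed few joint changes. Of 23 genes of the p53 list 9 rose (39.1%, against 28.4% of all genes) and 5 fell (21.7%, against 26.4%). Among them Sesn1 stood at 58.3 ± 2.62 against 19.9 ± 4.65 CPM, and Trp53inp1 was higher by 2.05 ± 0.21. Of 14 BCL2 family genes 4 rose (28.6%) and 6 fell (42.9%), and the median of -0.28 turned to 0.42 with total-count scaling. The survival gene Bcl2l1 (BCL-XL) had 24.2 ± 3.38 against 10.7 ± 1.31 CPM, and Bid, which promotes cell death, 13.3 ± 2.85 against 59.8 ± 9.32 CPM. Of 24 immediate early genes, which respond to handling of cells within minutes, 12 rose (50%) and 4 fell (16.7%), with a median of 0.98. Without EMCN- replicate 1, 2 or 4 the number that fell was 1, 2 and 2. Dusp1, a phosphatase of this group, had 32.3, 42.6 and 44.2 CPM against 2.85, 9.01, 2.01 and 7.87 CPM, and their part in the other differences was not tested.

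Transporters of the ABC family were divided as well. Of 31 tested, of 50 listed, 13 rose (41.9%, against 28.4% of all genes) and 8 fell (25.8%, against 26.4%). The median of 0.31 turned to -0.18 with the length and GC correction. Abcg3 had 38.7, 54.9 and 41.7 CPM in the EMCN- libraries and 0.407, 0.715, 0.402 and 0.983 CPM in the GMP libraries, and Abca5 10.4 ± 3.82 against 0.286 ± 0.274 CPM. Abca13, by contrast, gave 1 count in EMCN- LT-HSCs and 30.5 ± 8.02 CPM in GMPs, a ratio of 574 (95% counting interval 103 to 22715).

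By type of gene, few pseudogenes and small noncoding RNA genes were higher in EMCN- LT-HSCs, while the shares that fell were near or below the 26.4% of all genes. Of 570 pseudogenes 38 rose (6.67%) and 151 fell (26.5%), with a median of -0.56, and of 336 small noncoding RNA genes 1 rose (0.298%) and 74 fell (22.02%), with a median of -1.02. Of 619 long noncoding RNA genes 119 rose (19.2%) and 106 fell (17.1%), both below the shares of all genes (28.4% and 26.4%), with a median of 0.11. Protein-coding genes made up 11377 of the genes tested, with 3622 higher (31.8%) and 3159 lower (27.8%), and a median of 0.05. The share of genes called grew with level, from 43.2% in the lowest tertile by mean CPM through 53.9% to 67.1% in the highest. Against a 2-fold difference the order was another, with 857 genes higher and 271 lower in the lowest tertile, 455 and 311 in the middle one and 244 and 602 in the highest.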

How the data were processed

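Libraries of sorted cells' RNA were prepared with a stranded low-input total RNA kit and read in pairs on a NextSeq instrument, per the labels' protocols, which give the molecule as polyA RNA. The authors deposited estimated counts per gene, for which the submitters' processing notes name cutadapt and Salmon; versions, genome build, annotation and the step from transcripts to genes are not given in the sources used here. The values are whole numbers, and rounding to whole numbers was applied ahead of every fit. Symbols, types, exon lengths and coordinates came from GENCODE M21 (GRCm38), by Ensembl identifier: 54094 of 54347 matched without and 53307 with the version number. Counts were 0 in all 7 libraries for 25927 genes. Promoters came from RefSeq GRCm38.p6, leaving out the last 50 bases of each window, after the start, and any that GENCODE M21 gives as exon.

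The filter filterByExpr (minimum count 10) kept 13465 genes, which hold 99.6% of the counts. The 7 libraries were fitted with edgeR 4.0.16 (R 4.3.3), TMM factors and robust quasi-likelihood dispersions, without mouse as a block, with Benjamini-Hochberg adjustment at 0.05 over all genes. The same fit was tested against a log2 change of 1. The SE is the log2 change over the square root of F. Where all libraries of a group had 0 counts, the fold is a lower bound that sets that group to 3 counts. Where they had 1 to 3 counts it is a ratio of pooled CPM with an exact 95% counting interval. Pooled CPM is the summed counts of a group over its summed scaled totals. The test was checked on simulated data.

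Replicates are separate mice, and same-numbered libraries come from the same mouse. Deviations from group means correlated by 0.164 on average between the 3 same-mouse pairs (0.107 to 0.193) and by -0.0543 between 9 others (-0.199 to 0.0934). Such deviations cancel within a group, so the mean of the 9 others largely follows from that of the same-mouse pairs. Replicates differed beyond counting error, the chi-square over its degrees of freedom being 8.35 to 37.1.

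The comparison, the 55 gene lists and the named-gene rule were chosen with earlier results of these data known. Genes could be named if they were sort markers, or among the 15 most changed in each direction by the test against 2-fold (mean of at least 20 CPM, groups not overlapping, no predicted model), and per list up to 4 called members in its main direction and 2 in the other (mean of at least 2 CPM). Not every such gene is named, and some items are not reported here. Genes given only as at 0 or few counts, or as exceptions in a list, were picked after their values were seen. Alternatives were other scaling factors and filters, DESeq2 1.42.0, limma-voom (limma 3.58.1), no robust dispersion, mouse as a block, thinned libraries, protein-coding genes alone and each library left out. A correction for the length and GC content of each gene's longest transcript was added after the data were seen. The exon length used for tertiles and for CPM per kilobase is another measure, the joint length of all exons of a gene. Tests across other groups of the series were not made.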

Additional observations from a re-analysis of the deposited data

Results flagged for a closer look

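In the 4 GMP libraries the gap of the highest or lowest library to the next, divided by the whole range, was above Dixon's 95% critical value for 15 of 230 values examined; chance flags about 1 in 20. Groups of 3, such as EMCN- LT-HSCs, were not examined. The libraries that stood apart were GMP replicate 4 in 3 cases and each of the other 3 in 4 cases.

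Among named genes, GMP replicate 1 was low for Abca13 (18.6 CPM against 33.0 to 35.6 in the others, ratio 0.848). Its single count of Nkx2-3 gave a ratio of 1.0, since the others had 0. GMP replicate 4 held all 3 counts of Ndn (1.0), and it was low for Mybl2 (41.6 against 47.2 to 47.9 CPM, 0.89). GMP replicate 3 was low for Calr (1896 against 2455 to 2564 CPM, 0.836) and Tgm2 (0.603 against 1.43 to 1.49 CPM, 0.929) and high for Pglyrp2 (1.21 against 0.328 to 0.429 CPM, 0.885). GMP replicate 2 was low for Trp53inp1 (4.43 against 7.33 to 7.64 CPM, 0.903). All these values lay on the GMP side of every EMCN- library.

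Among summed levels, GMP replicate 2 was low for the surface genes of the sort (657 against 716 to 721 CPM, 0.92) and high for lysosome and autophagy genes (3122 against 2896 to 2899 CPM, 0.985) and macrophage markers (73.8 against 57.4 to 60.1 CPM, 0.831). GMP replicate 1 was high for T and NK cell markers (4.89 against 2.72 to 2.82 CPM, 0.954), and GMP replicate 3 was low for stromal and osteoblast markers (42.0 against 47.5 to 47.6 CPM, 0.968). GMP replicate 4 had the highest share of 5 abundant noncoding RNAs (Rmrp, Rpph1, Rn7sk and the pair Rn7s1 and Rn7s2) (8.40% against 7.60 to 7.65%, 0.936). GMP replicate 1 had the fewest genes detected at matched depth (16869 against 17599 to 17708, 0.87).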

How the results depend on the processing

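The counts of changed genes depended on the scaling. With total counts in place of TMM factors 7571 genes were called higher and 1502 lower, and 3077 and 490 by more than 2-fold. With totals that leave out the abundant noncoding RNAs 6044 were higher and 2024 lower, with 630 lower by more than 2-fold. The other settings kept all 4 counts within 1.5 times. With mouse as a replicate block 7175 genes were called, and 7117 in the 6 libraries of mice 1, 2 and 4, against 7372; besides the histone and T cell list counts given above, the block moved no list count of 3 or more by over 1.5 times and changed no call of a named gene. With each library left out in turn 3452 to 3735 genes were higher and 3277 to 3472 lower, and 1384 to 1528 and 1063 to 1186 by more than 2-fold. The difference in genes detected was then 1598.5 to 2167, and that in the share of the 50 most abundant genes -11.3 to -6.66 percentage points.

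Of 168 named genes 1 changed direction. Cd34, which did not pass the test, was at 0.65 with total counts, 0.40 without abundant noncoding RNA, 0.048 with upper-quartile factors, 0.039 after thinning, -0.124 to 0.0029 with each library left out (highest without GMP replicate 1), and 0.105 and 0.098 with the length and GC correction without and with a replicate block. Itgam no longer passed with total counts (log2 change -0.39, edgeR adjusted p = 0.13). In a single library 3 counts are worth up to 0.616 CPM, and log2 changes against a group with few counts, such as Fgd5 (5 counts in GMPs), Elane (7 in EMCN- LT-HSCs), Mycn (8 in GMPs) or Mmrn1 (9 in GMPs), are fitted values that rest on those counts.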
